A study of Mus musculus with 12 samples.

Results

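The 57 genes described here encode proteins that build the spliceosome or coat nascent transcripts. They are all protein-coding genes of the mouse retina table whose GENCODE M21 symbols start with Hnrnp, Snrp, Sf3a, Sf3b, Prpf or U2af, 57 of 55487 genes in the deposited table. The rule uses names and no measured value, and these families were picked with earlier results of these data known. By family they are 20 Hnrnp, 12 Snrp, 3 Sf3a, 6 Sf3b, 13 Prpf and 3 U2af genes, and all 57 passed the filter on low counts that 16233 genes passed. The 57 genes have 435 transcripts in the deposited transcript table, of which 291 were tested.

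Pre-mRNA introns are removed by the spliceosome, an assembly of small nuclear RNAs with their proteins. The Snrp genes encode the Sm ring that encloses these RNAs and the proteins particular to the U1 and U2 particles. U2af1 and U2af2 recognise the end of the intron, the Sf3a and Sf3b proteins hold the U2 particle at the branch point, and the Prpf proteins act mainly in the tri-snRNP and in the catalytic core. The heterogeneous nuclear ribonucleoproteins (hnRNPs) bind the transcript itself and shift the choice of splice sites. Several of these genes regulate their own level by splicing in a premature stop codon or keeping an intron. In the retina, inherited defects of PRPF8, PRPF31, PRPF3, PRPF4 and PRPF6 are known causes of retinitis pigmentosa, a degeneration of photoreceptors.

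Whole retina came from wild-type C57BL/6J mice and 5xFAD mice of strain Tg6799, each aged 1 month or 6 months, and each of these 4 groups gave 3 libraries. 5xFAD mice carry human transgenes, APP among them, with familial Alzheimer's disease mutations under the neuronal Thy1 promoter. Tg6799 is a single transgenic line, so line and transgene cannot be told apart. Libraries were poly-A selected and not strand-specific by their kit, so reads of a gene and of an antisense neighbour cannot be told apart. The labels do not say whether the 3 libraries of a group came from separate animals, and p-values measure the spread between these libraries.

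The libraries held 10928000 to 19552500 estimated counts, and the 57 genes took 0.944% to 1.06% of them. Ribosomal RNA took the highest shares of counts in 5xFAD replicates 1 and 2 at 6 months and in wild-type replicate 2 at 1 month, at 1.11%, 0.446% and 0.325%, against 0.0280% to 0.149% in the other libraries. Of 13 lists of cell type markers, 8 at 1 month and 7 at 6 months had summed levels that did not overlap between the genotypes. Among all 16233 genes tested singly the shares without overlap were 37.6% and 24.2%. The 6 markers of rods, the most numerous retinal cells, summed to 47794 to 51261 CPM (counts scaled to a common library size) in wild type and 53230 to 57097 CPM in 5xFAD at 1 month, and to 43713 to 47180 CPM and 52416 to 56385 CPM at 6 months. The 6 cone markers summed to 1287 to 1538 CPM and 1061 to 1246 CPM at 1 month, and to 1122 to 1210 CPM and 1454 to 1604 CPM at 6 months. Mouse App was at 233 to 323 CPM in wild type and 317 to 359 CPM in 5xFAD at 1 month, and at 303 to 318 CPM and 279 to 290 CPM at 6 months. These are levels of the mouse gene, and the human transgenes were not analysed here. The 5 markers of the pigment epithelium summed to 61.4 to 129 CPM in wild type and 16.1 to 30.7 CPM in 5xFAD at 1 month. The 5 lens markers summed to 0 to 0.629 CPM and 5.47 to 53.3 CPM in the same groups, and the 5 endothelial markers to 121 to 138 CPM and 198 to 212 CPM. At 6 months the endothelial sums were 110.0 to 148 CPM in wild type and 77.6 to 91.6 CPM in 5xFAD. The other lists without overlap were those of bipolar cells and astrocytes (higher in 5xFAD) and microglia (lower) at 1 month, and of lens and red blood cells (higher) and amacrine cells and Muller glia (lower) at 6 months. The mean transcript length over all counts of a library was 3709 ± 135 nt (SD, n = 3) in wild type and 4237 ± 15.6 nt in 5xFAD at 1 month. At 6 months it was 3911 ± 190 nt and 3658 ± 55.2 nt. The part of these marker and length differences in the results below was not tested except where stated. In whole tissue, fewer cells of a type and less RNA per cell cannot be told apart.

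Before the results on isoforms, sequences that distinguish some transcript models with a retained intron or an extra exon are printed. Of these models Hnrnpl-213 passed no comparison, and no test of Hnrnpk-217 or Prpf39-205 alone is given. The sequences were read from GENCODE M21 transcript sequences (GRCm38) and are printed 5′ to 3′ on the transcribed strand. The first 2 show whole introns kept in transcripts of the retained-intron class: intron 13 of Hnrnpk-201 (chr13:58393775-58393852, minus strand, 78 nt), kept in Hnrnpk-217, and intron 8 of Hnrnph3-202 (chr10:63015895-63016079, minus strand, 185 nt), kept in Hnrnph3-205. Capitals mark the intron, and 10 exon bases flank it on each side.
Hnrnpk intron 13: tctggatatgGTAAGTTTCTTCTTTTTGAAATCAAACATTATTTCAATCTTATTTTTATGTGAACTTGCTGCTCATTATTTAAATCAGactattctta
Hnrnph3 intron 8: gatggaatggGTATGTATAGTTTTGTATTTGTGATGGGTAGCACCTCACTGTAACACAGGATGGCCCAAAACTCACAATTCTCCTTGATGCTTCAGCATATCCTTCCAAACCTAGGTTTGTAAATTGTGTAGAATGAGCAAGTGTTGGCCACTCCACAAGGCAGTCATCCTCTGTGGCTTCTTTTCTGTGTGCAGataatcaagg
Both introns begin with GT and end with AG. The Hnrnpk intron is 24.4% G and C and the Hnrnph3 intron 43.8%.

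The next pair shows exons that the main coding transcripts skip, with the exon in capitals and 10 bases of each neighbouring exon. The first is a 70-nt exon of Hnrnpl-213 (chr7:28817335-28817404, plus strand), a transcript of the nonsense-mediated-decay class. The second is a 100-nt exon of Prpf39-205 (chr12:65055434-65055533, plus strand), inside intron 8 of Prpf39-201.
Hnrnpl extra exon: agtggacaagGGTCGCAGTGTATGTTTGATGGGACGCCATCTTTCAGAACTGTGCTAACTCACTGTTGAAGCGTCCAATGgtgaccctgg
Prpf39 extra exon: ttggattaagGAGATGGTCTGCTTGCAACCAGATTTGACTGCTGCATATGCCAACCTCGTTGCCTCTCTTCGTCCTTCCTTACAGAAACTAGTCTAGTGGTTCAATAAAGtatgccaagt
The annotated reading frame of Hnrnpl-213 ends at a TGA whose first base is position 57 of the extra exon. Such an exon is called a poison exon, because the stop it brings exposes the transcript to decay.

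The last sequences are junctions that tell an intron-bearing transcript from the spliced one, with intron bases in capitals. Prpf8-201 keeps the first intron of the 5′ leader (chr11:75486890-75487080, plus strand, 191 nt), which Prpf8-202 splices out. Sf3b2-208 starts inside intron 13 of the 20 introns of Sf3b2-201 (chr19:5283948-5284574, minus strand, 627 nt) and keeps its last 461 bases. Hnrnpl-206 ends inside intron 6 of the 11 introns of Hnrnpl-209 (chr7:28815353-28818460, plus strand, 3108 nt) after 1608 of its bases, upstream of the poison exon in the same intron.
Prpf8 intron 1 start: ggggcgacagGTGGGTGGTGGGCGTCTGAG
Prpf8 intron 1 end: GGCCTGCCTCTCTATCCCAGattctcccgg
Sf3b2 intron end: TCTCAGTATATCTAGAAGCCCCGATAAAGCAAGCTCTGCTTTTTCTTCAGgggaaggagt
Hnrnpl intron start: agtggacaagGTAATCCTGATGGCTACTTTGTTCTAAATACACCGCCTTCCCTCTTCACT
The retained-intron class is therefore a mixed one. Of its 90 tested transcripts of these genes, 32 held a whole intron of the gene's most abundant coding transcript, 54 only started or ended inside an intron, and 4 did neither. Of the 34 tested transcripts of the decay class, 18 had an exon inside an intron of that coding transcript.

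Per transcript length, hnRNP genes led the set. Hnrnpa2b1, which binds RNA for splicing and transport, had 1092 ± 199.8 TPM (transcript level scaled by length) in wild type and 1145 ± 29.1 TPM in 5xFAD at 1 month (SD, n = 3), and 1214 ± 104 and 1307 ± 167 TPM at 6 months. Hnrnph1, Hnrnpk, Hnrnpu and Hnrnpl followed at 686, 589, 565 and 513 TPM over the 12 libraries. The spreads of Hnrnpk and Hnrnpu overlapped, so these neighbours were not ordered beyond their error.

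The most abundant member of each other family lay well below. Snrpn, a Sm gene expressed mainly in neurons, had 256 TPM, and Snrpb itself had 190.0 TPM. Sf3b2 had 238 TPM, U2af2 204 TPM, Prpf8 139.9 TPM and Sf3a1 53.02 TPM. The lowest levels per length were those of Sf3b5 at 12.03 TPM, Snrpb2 at 20.4 TPM and Prpf4 at 20.8 TPM. The 6 other Sm genes, Snrpd1, Snrpd2, Snrpd3, Snrpe, Snrpf and Snrpg, lay between 40.4 and 77.9 TPM.

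At 1 month, 5xFAD retina had less RNA of 5 of the 8 Sm ring genes and of both U2af subunits, and more RNA of a few long genes of the catalytic core and the hnRNP group. Of the 57 genes, 5 were higher and 11 lower in 5xFAD (edgeR quasi-likelihood test, Benjamini-Hochberg adjusted over all genes tested), against a background of 19.6% of all genes called, 10.7% higher and 8.91% lower. The median log2 fold change was -0.11 over the 57 genes and -0.04 over all genes tested. Of the 12 Snrp genes 6 were lower and none higher, with 11 of 12 log2 fold changes below 0 and a median of -0.37. All 8 Sm ring genes had log2 fold changes below 0, and 5 of them were called. The genotype groups did not overlap in 25 of the 57 genes (43.9%), against 37.6% of all genes.

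Snrpf (ENSMUSG00000020018, chr10:93583029-93589706) encodes one of the Sm proteins common to the major spliceosomal particles. Its level was 15.98, 19.3 and 20.3 CPM in the 3 wild-type libraries and 10.3, 11.1 and 10.1 CPM in the 3 5xFAD libraries. Every 5xFAD library lay below every wild-type library (log2 fold change -0.82 ± 0.19 (SE), adjusted p = 0.00348 by edgeR). Snrpe (ENSMUSG00000090553, chr1:133603871-133610291), its neighbour in the ring, was at 25.5, 22.6 and 15.3 CPM in wild type and 12.7, 12.9 and 10.5 CPM in 5xFAD, again without overlap (log2 fold change -0.82 ± 0.23 (SE), adjusted p = 0.0128 by edgeR). Snrpb (ENSMUSG00000027404, chr2:130171414-130179403), the gene of the SmB proteins, was at 97.3, 133 and 113 CPM and 82.3, 71.7 and 87.7 CPM (log2 fold change -0.51 ± 0.12 (SE), adjusted p = 0.00413 by edgeR).

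Snrpd2 fell as well (log2 fold change -0.63 ± 0.19 (SE), adjusted p = 0.0205 by edgeR), though the groups overlapped at 42.2, 51.04 and 26.96 CPM and 27.3, 22.7 and 27.5 CPM. Snrpn, the neuronal Sm gene, was at 239, 269 and 257 CPM in wild type and 208, 199.9 and 206 CPM in 5xFAD and fell by a smaller step (-0.32 ± 0.09, adjusted p = 0.0122 by edgeR). The other Sm genes, Snrpd1 at -0.28, Snrpd3 at -0.29 and Snrpg at -0.12 on the log2 scale, did not pass. Among genes of the U1 and U2 particles, Snrpa1, a U2 protein, fell (log2 fold change -0.47 ± 0.16 (SE), adjusted p = 0.0364 by edgeR). Snrpa, Snrpc and Snrpb2 did not pass, at 0.075, -0.43 and -0.021.

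Both subunits of the U2 auxiliary factor were lower. U2af1, which reads the AG at the intron end, was at 62.3, 53.7 and 54.8 CPM in wild type and 42.6, 39.4 and 45.8 CPM in 5xFAD (log2 fold change -0.42 ± 0.13 (SE), adjusted p = 0.0309 by edgeR). U2af2, which binds the pyrimidine tract before it, was at 189, 215 and 199 CPM and 154, 165 and 159 CPM (log2 fold change -0.34 ± 0.10 (SE), adjusted p = 0.0163 by edgeR). Neither pair of groups overlapped. The variant subunit U2af1l4 did not pass (-0.61, adjusted p = 0.0752 by edgeR).

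The genes that rose at 1 month were long. Prpf8 (ENSMUSG00000020850, chr11:75486816-75509449), the largest protein of the catalytic core, was at 366, 353 and 433 CPM in wild type and 549, 550.2 and 588 CPM in 5xFAD. The 5xFAD libraries were all higher (log2 fold change 0.55 ± 0.09 (SE), adjusted p = 0.000129 by edgeR). Hnrnpr (ENSMUSG00000066037, chr4:136310942-136359447) was at 157, 119 and 148 CPM and 208, 217 and 185 CPM (log2 fold change 0.53 ± 0.11 (SE), adjusted p = 0.001 by edgeR). Hnrnpul2 (ENSMUSG00000071659, chr19:8820010-8834143) was at 233, 224 and 239 CPM and 305, 329 and 305 CPM (log2 fold change 0.43 ± 0.08 (SE), adjusted p = 0.000788 by edgeR). Hnrnpu, a nuclear matrix protein, rose by 0.25 ± 0.08 on the log2 scale (adjusted p = 0.0333 by edgeR).

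The 3 other genes that fell were Prpf40b (-0.46 ± 0.13 on the log2 scale), Hnrnph3 (-0.35 ± 0.10) and Hnrnpdl (-0.28 ± 0.09), an RNA-binding relative of Hnrnpd (adjusted p = 0.0121, 0.0155 and 0.031 by edgeR). No Sf3a or Sf3b gene passed. Sf3b5 had the furthest value of these, -0.52 (adjusted p = 0.0844 by edgeR), with wild-type libraries spread over 21.01, 32.1 and 15.5 CPM. Of 15 named genes with a call, 5 kept it when any 1 of the 12 libraries was left out: Prpf8, Hnrnpul2, Hnrnpr, Snrpf and Snrpb. Without wild-type replicate 2 at 1 month, 4 genes were higher and 2 lower. Over all genes that fit called 1155 higher and 738 lower, against 1732 and 1446 in the main fit.

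**Figure D1:**
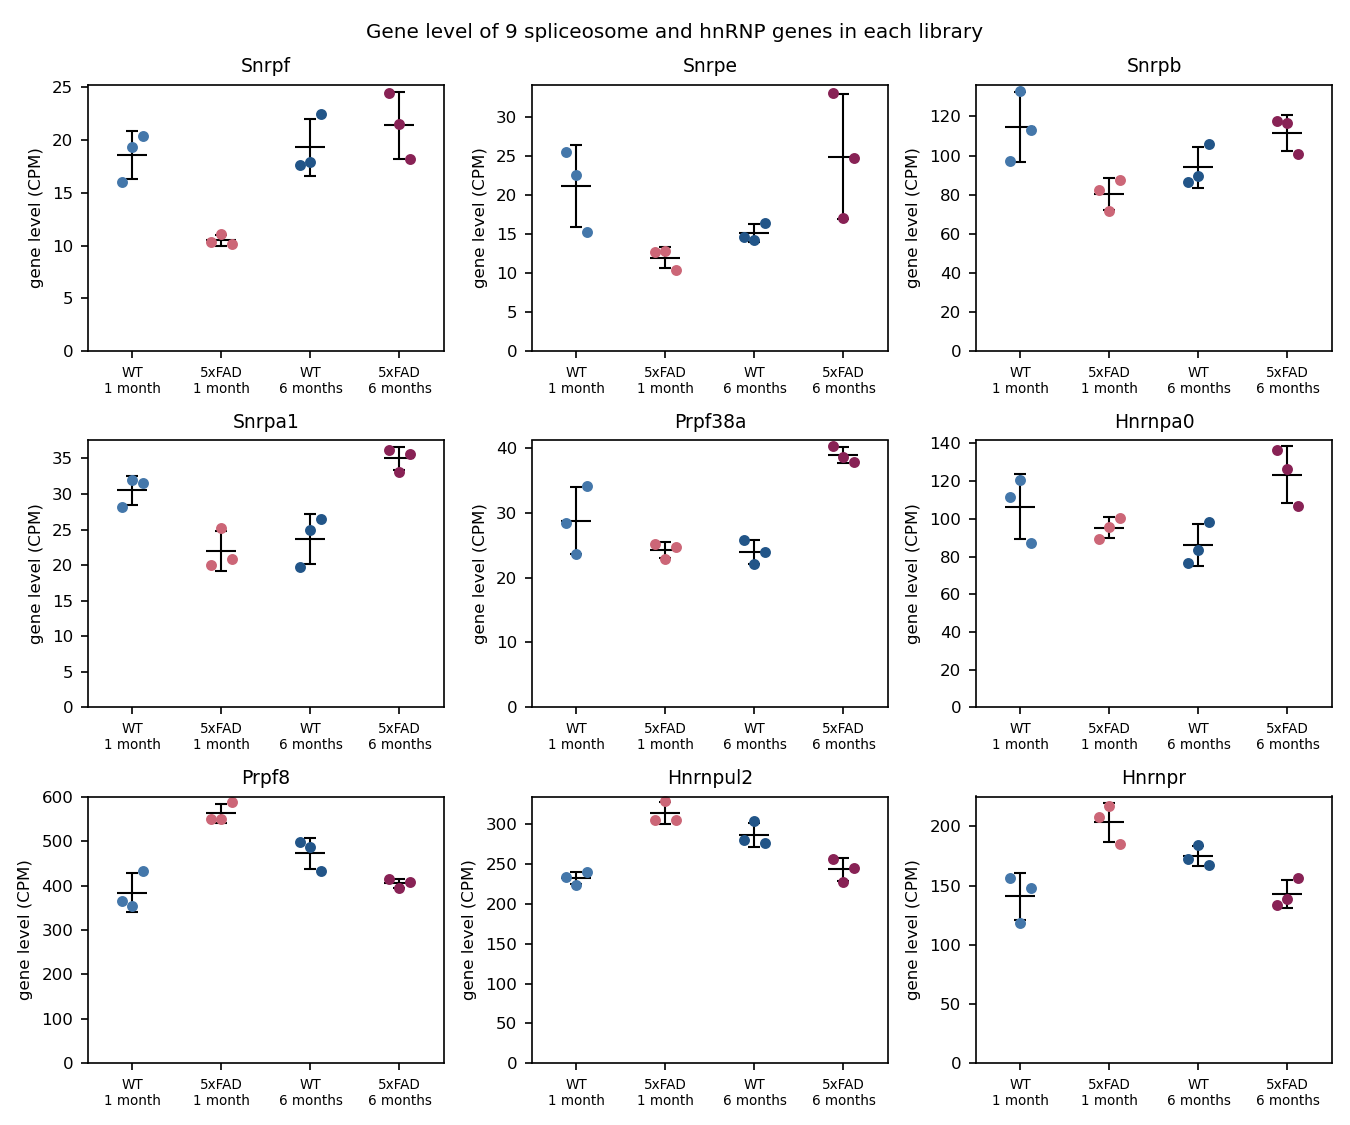
Level of 9 genes in CPM (vertical axes, from 0) in each of the 12 libraries (points), with the mean (horizontal line) and SD (whiskers) of the 3 libraries of a group. Snrpf, Snrpe and Snrpb are low in 5xFAD at 1 month, where Prpf8, Hnrnpul2 and Hnrnpr are high; Prpf38a, Snrpa1 and Hnrnpa0 are high in 5xFAD at 6 months.

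The direction of a gene at 1 month went with the length of its transcripts. Over the 57 genes, whose mean transcript length ran from 516 nt for Snrpe to 11081 nt for Hnrnpr, the log2 fold change rose with log2 length (Pearson r = 0.74, n = 57 genes, a description across genes that share libraries). Over 16204 genes with a length r was 0.29. By rank the relation was closer in size between the sets, with Spearman's rho of 0.66 over the 57 genes and 0.48 over all. Among the 23 genes in the shortest tertile of all tested lengths (below 2061 nt) 8 were lower and none higher, and among the 15 in the longest tertile (above 3578 nt) 5 were higher and none lower. All genes of the shortest tertile were lower in 18.3% and higher in 1.31%, and those of the longest tertile lower in 2.44% and higher in 27.0%.

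The whole table thus had a relation of the same sign. With each library's trend on length and GC content removed, r over the 57 genes at 1 month was 0.058. None of the 57 genes was then higher and 7 were lower, against 4.63% and 6.86% of all genes. Of the 16 genes called without this step 3 were called again, Snrpf (-0.62), Prpf40b (-0.32) and Hnrnpdl (-0.26) on the log2 scale. The values of Prpf8 and Hnrnpul2 were then 0.19 and 0.18, and that of Snrpe -0.52 (adjusted p = 0.068, 0.117 and 0.105 by edgeR). Hnrnpr at -0.033 and Hnrnpu at -0.084 changed sign.

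With the trend removed 4 further genes were lower in 5xFAD at 1 month. Sf3b1, the branch-point protein often mutated in myelodysplastic syndromes, was at 464, 410.4 and 414 CPM in wild type and 421, 370.4 and 391 CPM in 5xFAD at 1 month (log2 fold change -0.12 ± 0.08 (SE), adjusted p = 0.312 by edgeR). Relative to genes of its length and GC content its value was -0.50 (adjusted p = 6.15e-05 by edgeR). Prpf39, a U1 particle protein, was at 228, 203 and 177 CPM and 172, 168 and 163 CPM, with -0.27 before and -0.63 after the step (adjusted p = 0.0548 and 1.17e-05 by edgeR). Sf3a1 (-0.30) and Sf3b5 (-0.70) were the other 2 genes called only with the trend removed.

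**Figure D2:**
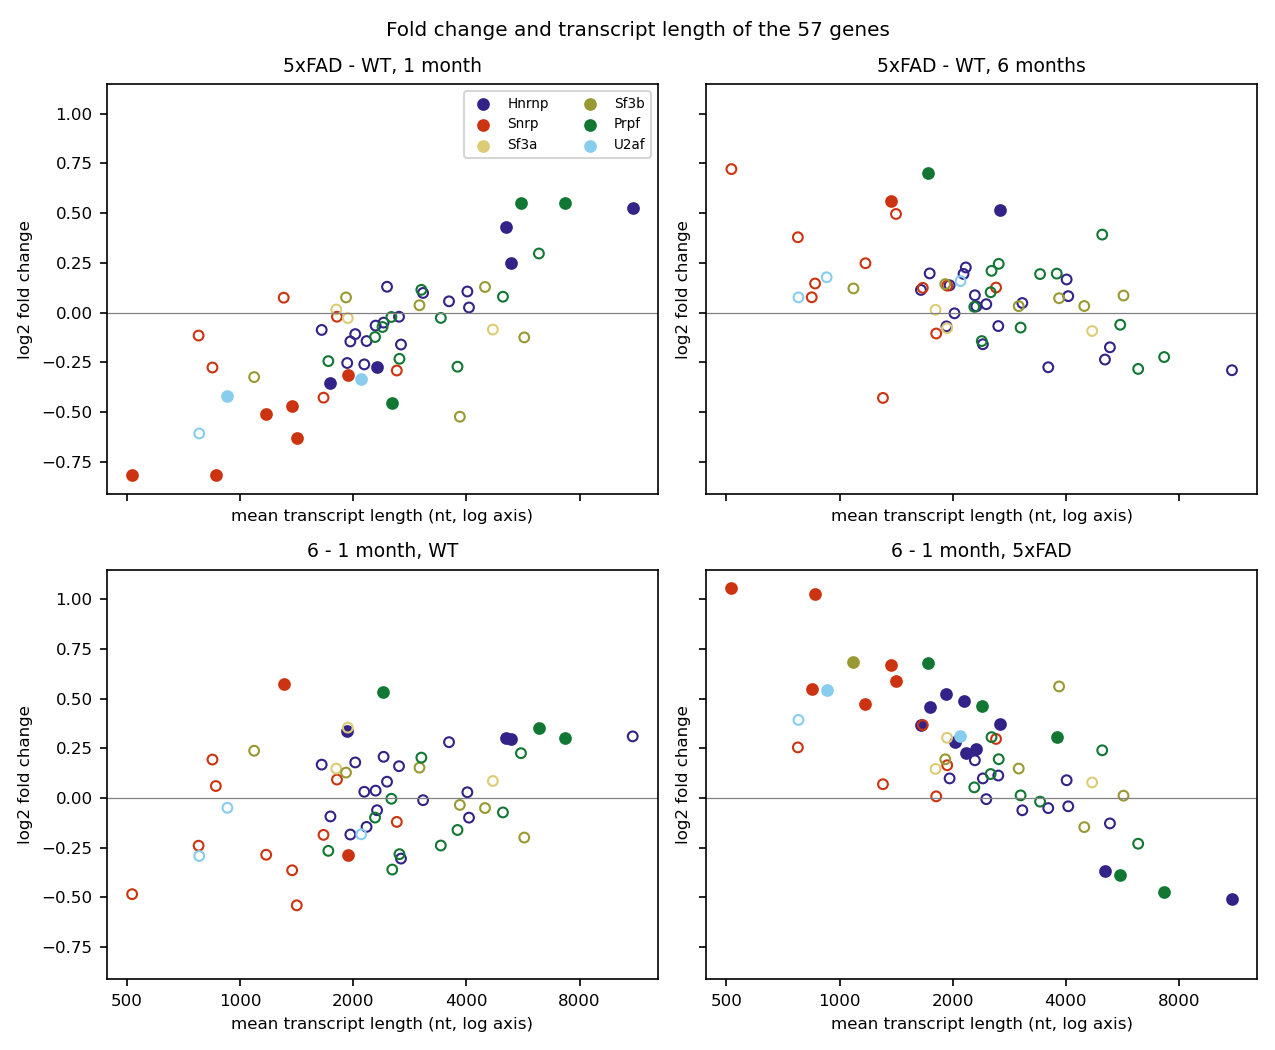
Log2 fold change of the 57 genes (vertical axes) against mean transcript length in nt (horizontal log axes) in 4 comparisons, coloured by family; filled points passed the edgeR test at an adjusted p below 0.05. Short genes lie below 0 and long genes above 0 at 1 month, and the slope is the opposite for age in 5xFAD.

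At 6 months few of these genes differed between genotypes. In 5xFAD 3 genes were higher, Prpf38a, Hnrnpa0 and Snrpa1, and none was lower, against a background of 6.38% of all genes called, 2.48% higher and 3.89% lower. Prpf38a (ENSMUSG00000063800, chr4:108563172-108579336), needed to activate the assembled spliceosome, was at 25.8, 22.1 and 23.95 CPM in wild type and 40.3, 38.6 and 37.8 CPM in 5xFAD (log2 fold change 0.70 ± 0.15 (SE), adjusted p = 0.00682 by edgeR). Hnrnpa0 (ENSMUSG00000007836, chr13:58125879-58128556), which binds AU-rich elements in mRNAs, was at 76.5, 83.5 and 98.4 CPM and 136, 127 and 107 CPM (log2 fold change 0.52 ± 0.12 (SE), adjusted p = 0.0131 by edgeR). Snrpa1 was at 19.7, 24.9 and 26.5 CPM and 36.2, 33.2 and 35.6 CPM (log2 fold change 0.56 ± 0.15 (SE), adjusted p = 0.0297 by edgeR), the opposite direction to 1 month.

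None of the 3 calls held in every fit with 1 library left out. Over all genes the main fit called 403 higher and 632 lower. Without wild-type replicate 2 at 6 months none of the 57 genes was called (105 higher and 171 lower over all genes). Without wild-type replicate 1 or 5xFAD replicate 1 at 6 months 1 was called (117 and 243, and 194 and 359, over all genes). Without 5xFAD replicate 3 at 6 months, 2 were higher and 3 lower (551 and 1136 over all genes). Without the 3 libraries richest in ribosomal RNA none was called. That fit leaves 1 library for 5xFAD at 6 months and 2 for wild type at 1 month and assumes that the lone library varies like the other groups, so calls lost in it do not measure stability. All 8 Sm genes had log2 fold changes above 0 at 6 months with none called. Snrpe was furthest at 0.72 and Hnrnpul2 lay below 0 at -0.24 (adjusted p = 0.0507 and 0.0925 by edgeR). The relation to length had the opposite sign (r = -0.47 over 57 genes and -0.18 over all, rho = -0.41 and -0.31). With the trend removed 9 genes were higher and 1 lower, against 7.21% and 2.35% of all genes, and the 3 genes above were among the 9.

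From 1 to 6 months wild-type retina gained RNA of 7 genes and lost RNA of 1, against a background of 10.5% of all genes called, 6.01% higher and 4.49% lower. The genes that rose were Prpf3, Prpf8 and Prpf4b of the tri-snRNP and its kinase, Hnrnpu, Hnrnpul2 and Hnrnpc of the hnRNPs, and Snrpa of the U1 particle. Prpf3 was at 37.6, 37.3 and 26.6 CPM at 1 month and 48.7, 47.6 and 50.9 CPM at 6 months (log2 fold change 0.54 ± 0.14 (SE), adjusted p = 0.0139 by edgeR). Snrpa was at 25.6, 32.8 and 35.4 CPM and 42.7, 47.8 and 49.1 CPM (log2 fold change 0.57 ± 0.16 (SE), adjusted p = 0.0216 by edgeR). Hnrnpc, which binds uridine runs in introns, was at 231, 253 and 251 CPM and 295, 286 and 349 CPM (log2 fold change 0.34 ± 0.10 (SE), adjusted p = 0.03 by edgeR).

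The other 4 rises were between 0.30 and 0.35 on the log2 scale. Snrpn was the gene that fell (log2 fold change -0.29 ± 0.09 (SE), adjusted p = 0.0354 by edgeR), from 239, 269 and 257 CPM to 192, 205 and 229 CPM. No call held with every library left out in turn. Without wild-type replicate 2 at either age 2 genes were called, both higher, and without wild-type replicate 1 at 6 months 4 were. Over all genes the main fit called 976 higher and 729 lower. Without replicate 2 at 1 month these were 505 and 340, and without it at 6 months 534 and 246. Without replicate 1 at 6 months they were 567 and 279. With the length trend removed 4 of the 8 were called again (Prpf3, Snrpa, Hnrnpc and Snrpn), among 5 higher and 7 lower genes, against 4.58% and 7.76% of all genes. Among the 7 were Sf3b1 (-0.45 on the log2 scale) and Prpf39 (-0.44; adjusted p = 0.00021 and 0.000685 by edgeR).

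In 5xFAD retina 24 of the 57 genes changed between the ages, mostly upward. Of the 57 genes 20 were higher and 4 lower at 6 months than at 1 month, against a background of 23.2% of all genes called, 10.8% higher and 12.4% lower. The median log2 fold change was 0.19 over the 57 genes and 0.03 over all genes. All 12 Snrp genes had values above 0, with 6 called and a median of 0.42. Because this comparison shares its 1-month 5xFAD libraries with the comparison at 1 month, an opposite sign in the 2 comparisons is not independent support for either.

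Snrpf was at 10.3, 11.1 and 10.1 CPM at 1 month and 24.5, 21.5 and 18.2 CPM at 6 months in 5xFAD (log2 fold change 1.02 ± 0.19 (SE), adjusted p = 0.00042 by edgeR). Snrpe was at 12.7, 12.9 and 10.5 CPM and 33.1, 17.1 and 24.8 CPM (log2 fold change 1.05 ± 0.23 (SE), adjusted p = 0.00165 by edgeR), with a wide spread at 6 months. Sf3b6, a small protein that touches the branch point, was at 33.7, 31.5 and 28.5 CPM and 58.8, 41.6 and 50.1 CPM (log2 fold change 0.68 ± 0.14 (SE), adjusted p = 0.00141 by edgeR). In these 3 genes every 6-month library lay above every 1-month library. The groups of this comparison did not overlap in 34 of the 57 genes (59.6%), against 36.5% of all genes.

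Other genes that rose were Snrpa1 (0.67 ± 0.16 on the log2 scale), Prpf38a (0.68 ± 0.15), Snrpd1 (0.55 ± 0.16), Snrpb (0.47 ± 0.12) and U2af1 (0.55 ± 0.13). Among the hnRNPs, Hnrnpc, Hnrnpab, Hnrnph3 and Hnrnpa2b1 rose by 0.52 ± 0.10, 0.49 ± 0.10, 0.46 ± 0.10 and 0.37 ± 0.10. Hnrnpa2b1, the most abundant of all, went from 757, 709.8 and 709 CPM to 846, 925 and 1038 CPM (adjusted p = 0.00737 by edgeR). The 8 further genes that rose, Snrpd2, U2af2, Prpf3, Prpf39, Hnrnpa0, Hnrnpa1, Hnrnpdl and Hnrnpf, lay between 0.22 and 0.59. The 4 genes that fell were again long ones, among them Prpf8 (-0.47 ± 0.09), Hnrnpr (-0.51 ± 0.11) and Hnrnpul2 (-0.37 ± 0.08).

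The relation to length was r = -0.79 over the 57 genes and -0.28 over all genes, with rho of -0.72 and -0.47. In the shortest tertile 13 of 23 genes rose and none fell, against 21.7% and 1.89% of all genes of that tertile. In the longest tertile 1 of 15 rose and 4 fell, which is 6.67% and 26.7%, against 2.65% and 30.4% of all genes there. With the length trend removed 18 genes were higher and none lower, against 10.7% and 5.06% of all genes, and 12 of the 24 were called again. These 12 were Hnrnpa0, Hnrnpa2b1, Hnrnpab, Hnrnpc, Hnrnph3, Prpf3, Prpf38a, Prpf39, Sf3b6, Snrpa1, Snrpe and Snrpf. Without 5xFAD replicate 3 at 1 month 11 genes were higher and 4 lower. Over all genes that fit called 1231 higher and 1503 lower, against 1760 and 2012 in the main fit. Leaving out the 3 libraries with the most ribosomal RNA gave fewer calls, over these genes and over all genes. That fit has 1 library left for 5xFAD at 6 months, so the loss does not measure stability.

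**Figure D3:**
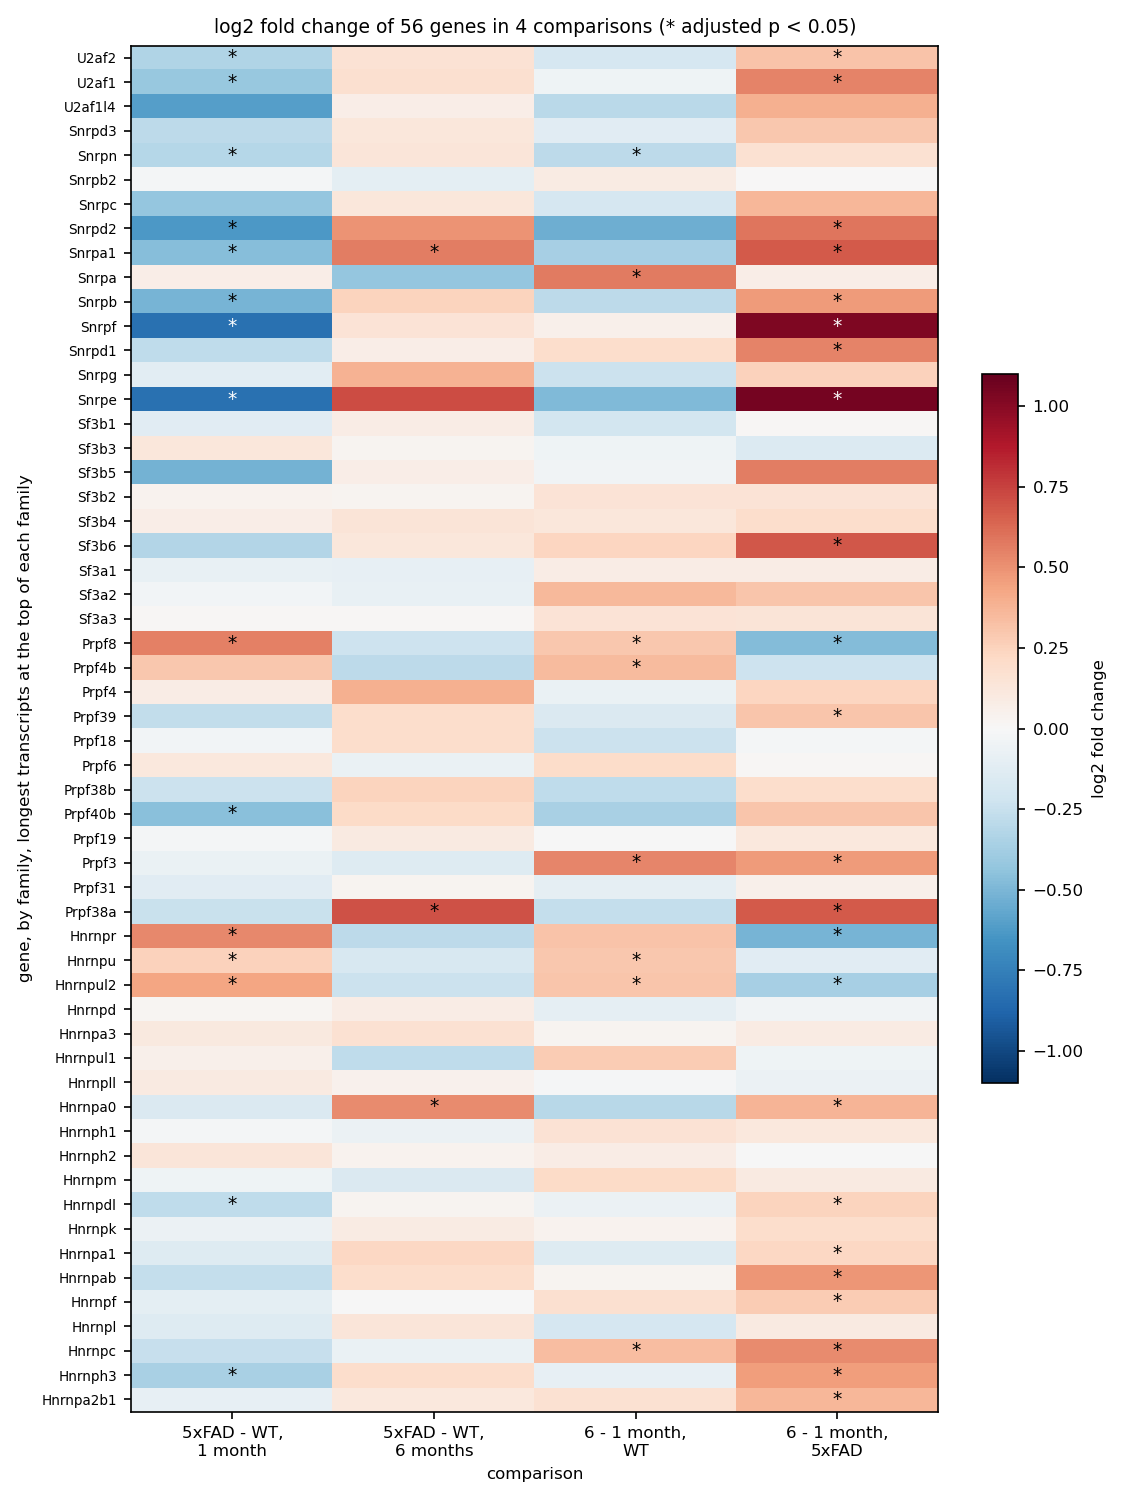
Log2 fold change of the genes reported by name (rows, by family, with longer transcripts towards the top of each family) in 4 comparisons (columns); red is higher and blue lower, and a star marks an adjusted p below 0.05 by edgeR. All Snrp rows but Snrpa are blue or near white at 1 month and all are red or near white for age in 5xFAD, and the rows of Prpf8, Hnrnpr and Hnrnpul2 show the opposite colours.

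The interaction term asks whether the genotype difference changed between the ages. It passed for 22 of the 57 genes, 16 with a more positive and 6 with a more negative difference at 6 months, against a background of 25% of all genes, 11.7% and 13.3%. The Sm ring gave 5 of the 16, with Snrpe at 1.54 ± 0.32, Snrpd2 at 1.13 ± 0.27, Snrpf at 0.96 ± 0.26, Snrpb at 0.76 ± 0.17 and Snrpn at 0.45 ± 0.12 on the log2 scale. Snrpa1 was at 1.03 ± 0.22, Prpf38a at 0.94 ± 0.22 and Hnrnpa0 at 0.68 ± 0.17. The 6 negative terms included those of Hnrnpr (-0.82 ± 0.15), Prpf8 (-0.77 ± 0.12), Hnrnpul2 (-0.67 ± 0.12), Prpf4b (-0.58 ± 0.16) and Hnrnpu (-0.43 ± 0.12).

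Of 17 named genes with a called interaction 14 kept the call with any 1 library left out; Hnrnpa1, Snrpn and U2af2 did not. Without the 3 libraries richest in ribosomal RNA fewer terms passed, over these genes and over all genes. That fit again has 1 library for 5xFAD at 6 months, so the loss does not measure stability. With the length trend removed 21 terms were positive and 1 negative, against 13.4% and 6.47% of all genes, with 12 of the 22 called again. None of the 6 negative terms was among these 12. Prpf39 and Sf3b1 then had the terms 1.05 and 0.82 (adjusted p = 4.2e-07 and 4.75e-06 by edgeR), and Snrpa was the gene with a negative one (-0.89).

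Transcript levels are estimates that divide reads among overlapping isoforms, and they gave fewer calls. Of 291 tested transcripts of these genes 7 differed between genotypes at 1 month, 4 higher and 3 lower (background 2.52% of 45326 transcripts, 1.6% higher and 0.922% lower). At 6 months 2 were lower (0.488%, with 0.165% higher and 0.322% lower), and with age in wild type 2 were higher (0.916%, with 0.552% higher and 0.364% lower). With age in 5xFAD 5 were higher and 6 lower (3.12%, with 1.16% higher and 1.96% lower), and in the interaction 8 were positive and 14 negative (6.05%, with 2.08% and 3.97%). The members' shares of 2.41%, 0.687%, 0.687%, 3.78% and 7.56% lay near the background. Among their counts, retained-intron transcripts took 9.47% ± 0.716 and 9.49% ± 0.365 in wild type and 5xFAD at 1 month, and 8.39% ± 1.00 and 9.51% ± 0.111 at 6 months (SD, n = 3). Transcripts of the decay class took 6.00% ± 0.153, 6.07% ± 0.234, 6.44% ± 0.402 and 5.29% ± 0.224 in the same order. Over all genes these classes took 6.09% to 6.46% and 2.73% to 3.16% as group means.

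These counts moved with single libraries, and the calls over all transcripts in the same fits are not given here. At 1 month 1 was called without wild-type replicate 2 at 1 month, 2 without 5xFAD replicate 1 or 2 at 1 month, 3 without wild-type replicate 1 at 1 month, and 4 without 5xFAD replicate 3 at 1 month or wild-type replicate 1 or 2 or 5xFAD replicate 2 at 6 months. At 6 months none was called without wild-type replicate 1 or 2 at 6 months, and 1 without 5xFAD replicate 1 or 3 at 1 month or 5xFAD replicate 1 at 6 months. With age in wild type none was called without wild-type replicate 2 at 1 month or replicate 1 or 2 at 6 months, 1 without wild-type replicate 1 or 5xFAD replicate 1 or 3 at 1 month, and 5 without wild-type replicate 3 at 1 month.

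With age in 5xFAD the count was 1, 2 and 4 without 5xFAD replicate 1, 2 and 3 at 1 month, 4 and 3 without 5xFAD replicate 1 and 2 at 6 months, and 7 and 6 without wild-type replicate 1 and 2 at 6 months. In the interaction it was 14 and 12 without wild-type replicate 1 and 2 at 1 month, 10, 11 and 11 without 5xFAD replicate 1, 2 and 3 at 1 month, and 10 and 7 without wild-type replicate 1 and 2 at 6 months.

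Prpf8 had the largest change at 1 month among called transcripts with counts in every library, and it lay in the 5′ leader. Prpf8-201, which keeps the 191-nt first intron shown above by its 2 junctions, was at 41.2, 54.2 and 50.9 CPM in wild type and 365, 328 and 334 CPM in 5xFAD at 1 month (log2 fold change 2.81 ± 0.33 (SE), adjusted p = 0.00497 by edgeR). At 6 months it was at 175, 237 and 91.7 CPM in wild type and 105, 65.3 and 57.6 CPM in 5xFAD. It fell with age in 5xFAD (-2.17) and rose with age in wild type (1.79), and its interaction term was -3.95 (adjusted p = 0.00923, 0.0365 and 0.00189 by edgeR). All of these calls but the rise in wild type held with any 1 library left out.

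The spliced form did not pass the test. Prpf8-202 was at 329, 299 and 377 CPM and 192, 221 and 265 CPM at 1 month, lower in each 5xFAD library but not called (log2 fold change -0.57 ± 0.15 (SE), adjusted p = 0.0824 by edgeR). Prpf8-201 made up 12.8% ± 2.24 of the sum of both in wild type and 60.3% ± 4.92 in 5xFAD at 1 month (SD, n = 3), and 34.2% ± 13.4 and 19.1% ± 6.51 at 6 months. The spread in wild type at 6 months was wide, at 34.6%, 47.4% and 20.5% in replicates 1 to 3. Replicate 3 also had the shortest mean transcript length of that group, 3692 nt against 4019 and 4022 nt. The length trend was not removed for transcripts or shares, so its part in the isoform results here and below was not tested. Apart from a few bases at the ends, only reads over the intron or its junctions tell the 2 forms apart.

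Sf3b2, which contacts pre-mRNA next to the branch point, had an isoform that changed at 1 month without a call for the gene. Its gene level was 269.8, 284 and 300.1 CPM in wild type and 273, 305 and 299 CPM in 5xFAD at 1 month (0.037, adjusted p = 0.812 by edgeR). Sf3b2-208, of the retained-intron class, was at 62.1, 97.1 and 51.9 CPM and 15.9, 7.06 and 22.9 CPM (log2 fold change -2.20 ± 0.39 (SE), adjusted p = 0.0191 by edgeR). At 6 months it was at 18.8, 20.04 and 25.5 CPM in wild type and 75.1, 70.00 and 57.4 CPM in 5xFAD, so that the genotype order was the reverse of that at 1 month. The 6-month difference did not pass (log2 fold change 1.65 ± 0.38 (SE), adjusted p = 0.0955 by edgeR), while the interaction did (log2 fold change 3.86 ± 0.54 (SE), adjusted p = 0.00379 by edgeR) and kept its call with any 1 library left out. The coding form Sf3b2-201 was at 202, 181 and 242 CPM and 254, 292 and 276 CPM at 1 month and had an interaction term of the other sign (-0.64, adjusted p = 0.0399 by edgeR). The 1-month call of Sf3b2-208 was lost without 5xFAD replicate 1 or wild-type replicate 2 at 1 month.

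Hnrnpu-206 was a decay-class transcript called in all 5 comparisons. It has 17 exons, none of which lies inside one of the 13 introns of the coding form Hnrnpu-201, and it keeps none of those introns whole. Its level was 150.3, 141 and 132 CPM in wild type and 198, 199 and 195 CPM in 5xFAD at 1 month, and 251, 263 and 193 CPM and 131, 129 and 128 CPM at 6 months. It was higher in 5xFAD at 1 month (0.49) and lower at 6 months (-0.86), without overlap between groups at either age (adjusted p = 0.0448 and 0.0114 by edgeR). The 1-month call was lost in 11 of the 12 fits with a library left out, every one but that without wild-type replicate 3 at 6 months, and the 6-month call without wild-type replicate 1 or 2 at 6 months. The interaction (log2 fold change -1.35 ± 0.15 (SE), adjusted p = 0.00169 by edgeR) kept its call in all 12. Hnrnpu-201 was at 536, 525 and 486 CPM and 437, 423 and 526 CPM at 6 months, where the groups overlapped.

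Hnrnpl, whose protein is known to promote its own poison exon, had several tested forms outside the coding class. The 2 described here had values in opposite orders. Hnrnpl-205, which starts in the same intron 6 and had a mean of 40.8 CPM, is not described. Hnrnpl-206, which ends inside intron 6, was at 92.97, 79.8 and 91.6 CPM in wild type and 148, 124 and 131 CPM in 5xFAD at 1 month, and at 154, 161 and 109 CPM and 84.1, 83.9 and 89.9 CPM at 6 months. Its interaction term passed (log2 fold change -1.32 ± 0.20 (SE), adjusted p = 0.00547 by edgeR) and held with any 1 library left out. Of the sum with the coding form Hnrnpl-209, Hnrnpl-206 made up 51.7% ± 4.22 in wild type and 55.6% ± 4.17 in 5xFAD at 1 month (SD, n = 3). At 6 months it made up 56.4% ± 6.33 and 42.7% ± 6.97. The genotype groups overlapped in this share at both ages. Hnrnpl-213, with the 70-nt poison exon, was at 65.3, 79.7 and 69.7 CPM and 29.1, 2.17 and 20.4 CPM at 1 month and at 4.49, 18.2 and 28.5 CPM and 44.97, 43.7 and 44.2 CPM at 6 months. Its groups did not overlap at either age, but no comparison passed (1 month adjusted p = 0.223, interaction adjusted p = 0.0995 by edgeR). Hnrnpl-213 was chosen after its values were seen, as the form with the exon printed above.

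**Figure D4:**
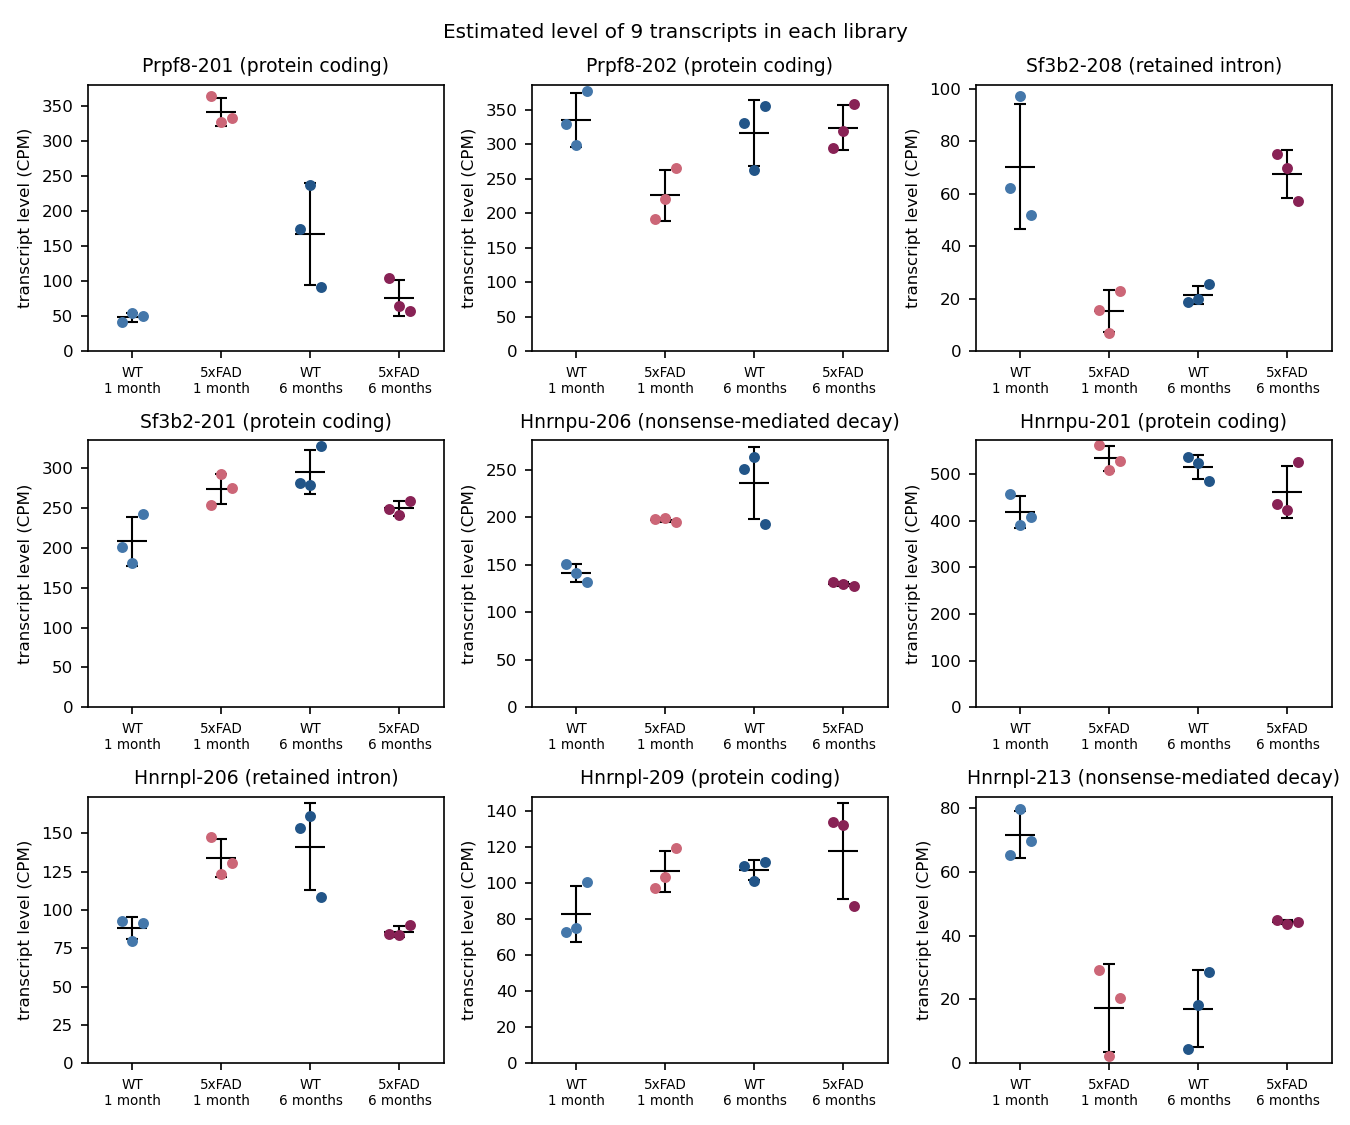
Estimated level of 9 transcripts in CPM (vertical axes, from 0) in each of the 12 libraries (points), with the mean (horizontal line) and SD (whiskers) of the 3 libraries of a group. Prpf8-201 is highest in 5xFAD at 1 month, Sf3b2-208 is low in 5xFAD at 1 month and in wild type at 6 months, and Hnrnpu-206 crosses between the ages.

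Other transcripts that passed at 1 month were the main forms of genes already named or rare ones. Hnrnpul2-201 rose by 0.44 and Hnrnpr-207, its longest form, by 0.86, and Prpf39-201 fell by 0.86 on the log2 scale (adjusted p = 0.0137, 0.0399 and 0.0439 by edgeR). Prpf19-202, a non-coding form of a ubiquitin ligase gene of the catalytic core, was listed at 40.3, 41.00 and 4.84 CPM in wild type and at 0 in all 3 5xFAD libraries at 1 month (adjusted p = 0.0282 by edgeR). At 6 months it was listed at 0, 0.404 and 0 CPM in wild type and 13.03, 20.8 and 27.3 CPM in 5xFAD. U2af1l4-221, the second transcript called at 6 months, was at 2.82, 1.495 and 4.58 CPM in wild type and listed at 0 in the 3 5xFAD libraries. An estimated 0 for 1 isoform can come from how reads are divided, so no fold is given for these 2.

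With age in 5xFAD the forms Snrpf-201 (0.99), Snrpe-204 (1.19) and Prpf38a-201 (0.70) rose like their genes (adjusted p = 0.0285, 0.0474 and 0.0367 by edgeR). Hnrnpr-207, Hnrnpul2-201, Hnrnpu-206 and Hnrnpl-206 fell, with log2 fold changes of -0.95, -0.39, -0.61 and -0.64. Each of these calls was lost without at least 1 of the libraries. Hnrnph3-205, with the 185-nt intron printed above, was at 7.04, 13.4 and 8.83 CPM in wild type and 4.37, 2.41 and 3.76 CPM in 5xFAD at 1 month, and at 1.81, 2.04 and 2.15 CPM and 7.18, 3.33 and 7.63 CPM at 6 months (log2 fold change 3.06 ± 0.71 (SE), adjusted p = 0.0326 for the interaction by edgeR, lost in 11 of 12 fits with a library left out).

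The share of a gene's counts on its retained-intron transcripts removes the gene's own level. It was tested in 31 of the 57 genes, those with enough counts in both parts, by edgeR on the paired counts. At 1 month 1 gene, Sf3b2, passed and was lower in 5xFAD (background 2.93% of 4772 genes, 1.53% higher and 1.4% lower). Its share was 26.1%, 36.4% and 18.4% in wild type and 8.05%, 3.87% and 9.399% in 5xFAD (log2 odds ratio -2.31 ± 0.42 (SE), adjusted p = 0.0198 by edgeR). The call was lost in 3 of the 12 fits with a library left out, those without 5xFAD replicate 1 or 2 or wild-type replicate 2 at 1 month. Without wild-type replicate 3 at 1 month or at 6 months 2 genes were called.

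At 6 months and with age in wild type no gene of the 31 passed with edgeR (backgrounds 0.189%, as 0.0838% higher and 0.105% lower, and 0.44%, as 0.231% higher and 0.21% lower), while 7 and 12 had an unadjusted p under 0.05 (22.6% and 38.7%, against 13.3% and 14.2% of all 4772 genes). Limma on the logit of the share also called none, and edgeR with a minimum of 50 counts called 3 and 4. The calls over all genes at that minimum are not given here. With age in 5xFAD the share of Sf3b2 rose (1.95) and that of Prpf39 fell (-1.54; adjusted p = 0.0337 and 0.0429 by edgeR, background 2.89%, 1.55% higher and 1.34% lower). These 2 calls were absent with limma, and both were lost together in 8 of the 12 fits with a library left out, those without wild-type replicate 1 at 1 month, without any of 5xFAD replicates 1 to 3 at 1 month, without wild-type replicates 1 or 2 or 5xFAD replicates 1 or 2 at 6 months. Without 5xFAD replicate 3 at 6 months the call of Prpf39 was lost.

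The interaction passed for 6 of 31 genes, 19.4% against a background of 7.67% (2.95% positive and 4.72% negative). Over all 4772 genes the median log2 odds ratio was 0.36 at 1 month, -0.41 with age in 5xFAD and -0.72 in the interaction. Over the 31 genes it was 0.29, -0.42 and -0.55. The negative terms below have the sign of the median over all genes. Sf3b2 (3.92) and Hnrnpk (2.02) had positive terms, and Prpf39 (-2.48), Hnrnpdl (-2.20), Hnrnpll (-1.97) and Hnrnpl (-1.73) negative ones, as log2 odds ratios. The adjusted p-values by edgeR were 0.00458, 0.0314, 0.0141, 0.0253, 0.0499 and 0.0144 in that order. In all 6 genes the order of the genotype means at 6 months was the reverse of that at 1 month. These genes were selected by the interaction on the same values, which favours a reversed order, and its share over all genes was not counted.

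Prpf39 had shares of 25.97%, 23.5% and 36.8% in wild type and 44.8%, 58.6% and 51.1% in 5xFAD at 1 month, and 47.5%, 45.9% and 36.6% and 24.7%, 31.4% and 24.7% at 6 months. Its retained-intron class includes Prpf39-205 with the 100-nt exon printed above. Hnrnpl had 35.5%, 29.7% and 33.7% and 46.3%, 49.2% and 44.6% at 1 month and 51.5%, 50.8% and 40.4% and 35.01%, 28.7% and 34.7% at 6 months. At both ages the genotype groups of these 2 genes did not overlap.

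Hnrnpk, with the 78-nt intron printed above among its forms, had 17.04%, 20.95% and 14.8% and 16.8%, 7.76% and 13.8% at 1 month, where the groups overlapped, and 9.44%, 6.55% and 5.598% and 16.1%, 15.97% and 18.6% at 6 months, where they did not. Hnrnpdl, low in all groups, had 3.19%, 2.29% and 3.78% and 6.03%, 6.35% and 3.87% at 1 month and 5.86%, 5.89% and 4.203% and 1.39%, 2.87% and 2.34% at 6 months. Hnrnpll, a splicing factor best known from lymphocytes, had 24.4%, 13.4% and 21.5% and 37.3%, 34.8% and 31.9% at 1 month and 30.2%, 36.4% and 27.6% and 16.6%, 23.3% and 21.9% at 6 months. The terms of Sf3b2, Prpf39 and Hnrnpl kept their calls with any 1 library left out. That of Hnrnpll lost its call in 11 of the 12 such fits, that of Hnrnpk in 8 and that of Hnrnpdl in 5. Without wild-type replicate 2 at 1 month, 5xFAD replicate 2 at 1 month or wild-type replicate 2 at 6 months 3 genes were called. Without the 3 libraries richest in ribosomal RNA, where 5xFAD at 6 months has 1 library, none of the 6 was called.

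**Figure D5:**
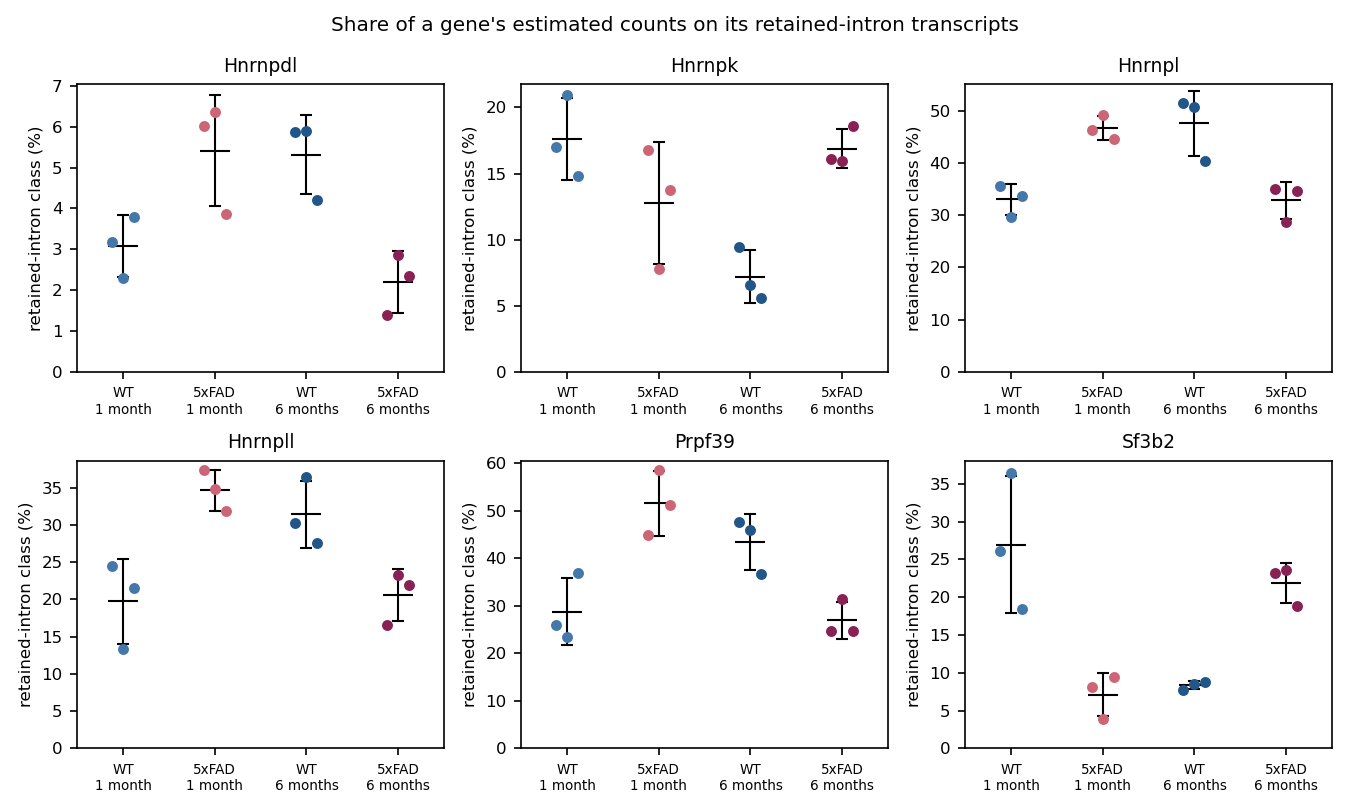
Share of a gene's estimated counts on its retained-intron transcripts, in percent (vertical axes, from 0), in each of the 12 libraries (points) for the 6 genes whose interaction passed, with the mean (horizontal line) and SD (whiskers) of a group. Sf3b2 and Hnrnpk are low in wild type at 6 months, and Prpf39, Hnrnpl, Hnrnpdl and Hnrnpll are high there and in 5xFAD at 1 month.

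The share of counts on decay-class transcripts was tested in 22 genes and none passed in any comparison (edgeR, backgrounds 0%, 0%, 0%, 0% and 0.517% of 1933 genes). On simulated data of the 1-month comparison this test recovered 0 of 67 shares changed 1.5-fold and 0 of 67 changed 2-fold. It recovered 5 of 66 changed 4-fold, so a lack of calls does not measure a lack of change. Unadjusted p was under 0.05 in 3, 3, 5, 3 and 5 of the 22 genes, in the order 1 month, 6 months, age in wild type, age in 5xFAD and interaction. These are 13.6%, 13.6%, 22.7%, 13.6% and 22.7%, against 11%, 8.79%, 7.81%, 11% and 15.7% of all 1933 genes. Limma on the logit, and edgeR with a minimum of 50 counts, each called 1 gene in the interaction and none elsewhere. Hnrnpl, through its poison exon, had shares of 15.2%, 18.3% and 16.6% in wild type and 6.91%, 0.6303% and 5.04% in 5xFAD at 1 month and 1.17%, 4.52% and 7.69% and 11.9%, 9.99% and 10.7% at 6 months. The groups did not overlap at either age, and neither difference passed (1 month log2 odds ratio -2.65 ± 0.97 (SE), adjusted p = 0.362 by edgeR). Hnrnpu had 24.6%, 26.1% and 21.1% in wild type and 15.9%, 16.6% and 13.99% in 5xFAD at 6 months (log2 odds ratio -0.78 ± 0.24 (SE), adjusted p = 0.52 by edgeR).

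The other genes of the pathway were taken from 5 lists by function. Their counts stand against the 19.6% of all genes called at 1 month (10.7% higher and 8.91% lower) and the 23.2% called with age in 5xFAD (10.8% higher and 12.4% lower). Of 31 other proteins of the snRNPs and the tri-snRNP 1 rose and 8 fell at 1 month (edgeR, 29.0% called, median log2 fold change -0.24), and 9 rose and 1 fell with age in 5xFAD (32.3% called, median 0.29). Lsm7, of the ring around the U6 RNA, fell by 0.76 at 1 month, while Snrnp200, the long helicase partner of Prpf8, rose by 0.47. Of 29 proteins of the Prp19 complex and the catalytic steps 2 rose and 5 fell at 1 month (24.1%, near the share of all genes), with Syf2 at -0.74 and the helicase Aqr at 0.59. With age in 5xFAD 8 of the 29 rose and 2 fell (34.5% called, median 0.23). Of 13 minor spliceosome proteins 1 fell at 1 month (7.69%), Zrsr1, the U2af1-like reader of minor introns, at -0.41. With age in 5xFAD 2 of the 13 rose and none fell (15.4%).

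Of 20 proteins of the exon junction complex and nonsense-mediated decay 2 rose and 3 fell at 1 month (25.0%, near the share of all genes), with Upf2 at 0.37, the kinase Smg1 at 0.39 and Magohb at -1.19. With age in 5xFAD 3 of them rose and 2 fell (25.0%). None of 20 snRNP assembly proteins was called at 1 month by edgeR, with a median of -0.16. With age in 5xFAD 4 of these 20 rose and 1 fell (25.0%, against 23.2% of all genes), among them Phax, the export adaptor of spliceosomal RNAs, at 0.58 and Gemin7 of the SMN complex at 0.78. At 6 months 1 gene of the 5 lists rose, Rbm48 at 0.71, of the 13 minor spliceosome proteins (7.69%). The gene that fell was Srrm2 at -0.52, of the 29 proteins of the Prp19 complex and the catalytic steps (3.45%). None was called in the other lists, with 31, 20 and 20 genes tested. Over all genes 6.38% were called at 6 months, 2.48% higher and 3.89% lower. With age in wild type 3 of the 31 snRNP proteins fell (9.68%, against 4.49% of all genes), Ddx23, Luc7l and Puf60, by 0.39, 0.36 and 0.38 on the log2 scale.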

How the data were processed

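Poly-A RNA of mouse whole retina was sequenced in 12 libraries, 3 in each of 4 groups given by the labels. The authors deposited expected counts per gene and per transcript, not scaled between libraries, at 10928000 to 19552500 per library. Per the submitters' processing notes the tools were Trim Galore 0.6.6, STAR 2.7.1a, RSEM 1.3.3 and DESeq2 1.32.0 with GRCm38.p6; the annotation and strand setting are not given in the sources used here. Expected counts divide ambiguous reads among paralogs, pseudogenes and isoforms, so near-identical copies are uncertain, and 5 processed pseudogenes with these prefixes were not members. Ensembl IDs were matched to GENCODE M21 for 55227 of 55487 genes and 141469 of 142699 transcripts.

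The deposited counts were rounded to whole numbers and tested with edgeR 4.0.16 (R 4.3.3), with quasi-likelihood fits over all 12 libraries, TMM scaling and the default filter, leaving 16233 genes and 45326 transcripts. P-values were adjusted by the Benjamini-Hochberg method over all features tested, with a threshold of 0.05, and all tests were two-sided. A lack of overlap between groups is a description and not a test. It was counted over all genes but not over all transcripts or shares. CPM and TPM were computed from the deposited counts, TPM from transcript counts divided by transcript length. For a share, counts in and outside a transcript class were fitted as paired counts per library, for genes with a mean of at least 10 counts in each part. The length and GC trend of each library was fitted by a spline with 4 degrees of freedom in each over all genes and entered as an offset. This was done at gene level only, not for transcripts or shares. Alternatives were DESeq2 1.42.0, other scaling and filters, the replicate block, only the 6 samples compared, limma 3.58.1, the trend removed and libraries left out.

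Named genes were, per comparison, up to 12 higher and 12 lower called members by smallest p, or the 5 smallest p where fewer than 5 were called, and in each family the most abundant per length and the smallest p. Named transcripts were called ones with a mean of at least 1 CPM, up to 6 in each direction, and named shares were called ones up to 8 or else the 3 smallest p. Up to 3 genes were named from each of the 5 functional lists. 1 member is not reported by name here and stays in the counts over all members. The members and lists were chosen with earlier results of these data known. Same-numbered libraries did not deviate together over the genes (18 pairs, correlations from -0.0852 to 0.0623), and the main fits used no block. With 3 libraries per group such correlations cannot show whether a weaker pairing by number exists. On simulated data of the comparison at 1 month over 16233 genes, 28 of 67 genes changed 1.5-fold, 35 of 67 changed 2-fold and 48 of 66 changed 4-fold were recovered, with 6 other genes called.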

Additional observations from a re-analysis of the deposited data

Results flagged for a closer look

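The genotype difference changed between 1 and 6 months in 22 of the 57 genes (38.6%), against 25% of all genes. The test was of the difference itself, the interaction term in edgeR with an adjusted p below 0.05. In log2 units the term was 1.54 for Snrpe, 1.13 for Snrpd2, 1.03 for Snrpa1, 0.96 for Snrpf, 0.76 for Snrpb and 0.45 for Snrpn. It was 0.94 for Prpf38a, 0.67 for Prpf40b, 0.48 for Prpf38b and 0.47 for Prpf39. The term of U2af1 was 0.60 and that of U2af2 0.49. Among the hnRNPs it was 0.68 for Hnrnpa0, 0.55 for Hnrnph3, 0.45 for Hnrnpab and 0.37 for Hnrnpa1. Negative terms were -0.82 for Hnrnpr, -0.77 for Prpf8, -0.67 for Hnrnpul2, -0.58 for Prpf4b and -0.43 for Hnrnpu. With the length and GC trend removed 12 of the 22 genes were called again, none of them with a negative term. The terms of Hnrnpr, Prpf4b and Hnrnpu then changed sign.

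The same term passed for 7.56% of the 291 tested transcripts of these genes, against 6.05% of all transcripts. It passed for 10 named transcripts without a group at or near 0. It was -3.95 for Prpf8-201, -1.42 for Hnrnpr-207, -1.35 for Hnrnpu-206, -1.32 for Hnrnpl-206 and -0.73 for Hnrnpul2-201. Positive terms were 3.86 for Sf3b2-208, 3.06 for Hnrnph3-205, 1.79 for Hnrnph2-202, 1.316 for Prpf39-201 and 0.89 for Prpf38a-201.

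For the retained-intron share the log2 odds ratio of the interaction was 3.92 for Sf3b2, 2.02 for Hnrnpk, -1.73 for Hnrnpl, -1.97 for Hnrnpll, -2.20 for Hnrnpdl and -2.48 for Prpf39. The median over all 4772 genes was -0.72, and 7.67% of them were called. Only the calls of Sf3b2, Prpf39 and Hnrnpl held with any 1 library left out.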

How the results depend on the processing

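Gene-level values for single named genes gave the same direction and side of the threshold in 1075 of the fits under alternatives, lost the call in 155, gained it in 7 and changed sign in 6. Transcript values were on the same side in 432 fits and lost the call in 236, and shares were on the same side in 369, lost the call in 63 and gained it in 8. All 6 sign changes came with the length and GC trend removed, where the values were -0.033 for Hnrnpr and -0.084 for Hnrnpu at 1 month, 0.053 for Hnrnpr with age in 5xFAD, and, in the interaction, 0.053 for Hnrnpr, 0.077 for Prpf4b and 0.11 for Hnrnpu. With that trend removed 7 genes were called at 1 month in place of 16, and 10 at 6 months in place of 3. Over all genes the higher share of calls then moved from 54.5% to 40.3% at 1 month, from 38.9% to 75.4% at 6 months, from 57.2% to 37.1% with age in wild type, from 46.7% to 67.8% with age in 5xFAD and from 46.7% to 67.4% in the interaction. The cause was not tested.

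At 6 months DESeq2's Wald test called 6 genes, with 626 higher and 833 lower over all genes, against 403 and 632 by edgeR. With every feature of at least 1 count 7 genes were called, with 452 higher and 984 lower over all genes. DESeq2 called 43, 30, 39, 44 and 65 transcripts, against 7, 2, 2, 11 and 22 by edgeR. The order is 1 month, 6 months, age in wild type, age in 5xFAD and interaction, and the cause was not tested. Calls over all transcripts under these settings are not given here, so the counts cannot show an excess among these genes. With every feature of at least 1 count 7 transcripts were called with age in 5xFAD. With only the 6 samples compared 0, 1 and 5 transcripts were called at 6 months, with age in wild type and with age in 5xFAD. Without the 3 libraries richest in ribosomal RNA (5xFAD replicates 1 and 2 at 6 months and wild-type replicate 2 at 1 month), 0 genes were called at 6 months, 13 with age in 5xFAD and 10 in the interaction. Transcript calls were then 2 at 1 month, 0 at 6 months, 3 with age in 5xFAD and 6 in the interaction, and retained-intron shares 0 at 1 month, with age in 5xFAD and in the interaction; this setting leaves 1 library for 5xFAD at 6 months and 2 for wild type at 1 month, and the lone library is assumed to vary like the other groups. A minimum of 50 counts gave 4, 3, 4 and 5 retained-intron shares in the 4 pairwise comparisons and 1 decay share in the interaction. The share calls over all genes under the alternatives are not given here. Limma on the logit gave 0 retained-intron shares with age in 5xFAD and 1 decay share in the interaction.

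With the replicate number as a block 1, 1, 1, 2 and 9 transcripts were called in the 5 comparisons, and retained-intron shares numbered 0 at 1 month, 0 with age in 5xFAD and 3 in the interaction. No gene-level count moved by over 1.5 times under the block. By their labels the libraries share only a number, and 4 of the 12 were nearest to one with their own.

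Leaving out each library in turn gave 6 to 19 genes at 1 month, 0 to 5 at 6 months, 2 to 12 with age in wild type, 15 to 24 with age in 5xFAD and 15 to 24 in the interaction. Calls over all genes moved in these fits as well, as given above for single fits. Transcript counts ran from 1 to 7, 0 to 3, 0 to 5, 1 to 12 and 7 to 25. Retained-intron shares ran from 0 to 2 at 1 month, 0 to 2 with age in 5xFAD and 3 to 6 in the interaction, and were 0 elsewhere. Data were simulated for all 12 libraries at their depth, with means and spread taken over all 4 groups. Changes were put into 5xFAD at 1 month. Far fewer transcripts were changed than the 1144 called in the data at 1 month, which makes the adjusted threshold stricter. Recovery in the simulation therefore does not measure the power of the real tests. No transcript changed 1.5-fold and no retained-intron or decay share changed 1.5-fold or 2-fold was recovered. Of those changed 4-fold, 9 of 66 transcripts, 4 of 66 retained-intron shares and 5 of 66 decay shares were recovered.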
